A study of Mus musculus with 2 samples.

Results

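A set of 7 genes of the sarcomere's giant and scaffold proteins were followed through long-read RNA sequencing of mouse gastrocnemius, a calf muscle: Ttn, Neb, Nebl, Obsl1, Nrap, Xirp1 and Xirp2. They were chosen by name, and these 7 genes were among 17859 annotated genes with a count in either library. All 7 had counts in each library. Together they held 860 counts in replicate 1 and 636 in replicate 2, or 0.0861% and 0.0620% of the counts on annotated genes. The tissue came from male B6CASTF1/J mice (F1 hybrids) of 4 days of age, with no treatment and no other group, and 2 µg of total RNA went into each library. The 2 libraries have separate biosample entries but 1 shared donor entry, and the replicate labels do not say whether each is 1 animal or a pool. P-values between the libraries therefore hold counting error only, and they compare 2 libraries, not 2 conditions.

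Titin (Ttn) is the longest known protein of vertebrates and runs from the Z-disk, where neighbouring sarcomeres meet, to the M-band in the middle of the sarcomere. It acts as a molecular spring and as a ruler for assembly. Nebulin (Neb) lies along the actin thin filament as a chain of actin-binding repeats and is anchored in the Z-disk by its C-terminal end. Nebulette (Nebl) is a short relative known chiefly from the heart. Obsl1, an obscurin-like protein built of immunoglobulin domains, links M-band and cytoskeletal proteins. Nrap carries a LIM domain and nebulin-type repeats and is found at assembling myofibrils and at muscle ends, as are the Xin-repeat proteins Xirp1 and Xirp2, which bind actin. All 7 transcripts are long or cut into many exons, and long reads show which exons 1 molecule carried.

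The sequences on which the splicing results turn are the 93-base repeat exons of Neb, an alternative pair in the same gene, an exon of Nrap and the last junctions of Ttn. They were read from GENCODE M21 transcripts on GRCm38, 5′ to 3′ on the minus strand. The first set has 8 Neb exons from the stretch for the Z-disk part of nebulin, which reads carried in varying combinations. The exon of Neb-208 comes from a transcript annotated without coding sequence, and the other 7 are coding. Capitals mark the 56 of 93 positions at which all 8 hold the same base.
Neb exon 146, chr2:52157832-52157924: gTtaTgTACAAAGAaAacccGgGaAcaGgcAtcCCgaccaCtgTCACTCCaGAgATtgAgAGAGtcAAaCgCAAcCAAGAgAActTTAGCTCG
Neb exon 147, chr2:52157291-52157383: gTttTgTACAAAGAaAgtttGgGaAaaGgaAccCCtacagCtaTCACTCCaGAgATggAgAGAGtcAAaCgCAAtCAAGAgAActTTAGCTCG
Neb exon of Neb-203, chr2:52156355-52156447: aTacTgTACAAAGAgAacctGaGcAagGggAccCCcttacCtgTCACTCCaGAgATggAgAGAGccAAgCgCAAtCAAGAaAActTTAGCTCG
Neb exon of Neb-208, chr2:52153683-52153775: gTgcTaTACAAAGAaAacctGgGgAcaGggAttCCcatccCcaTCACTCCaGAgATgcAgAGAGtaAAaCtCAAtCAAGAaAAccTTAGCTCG
Neb exon 148, chr2:52153056-52153148: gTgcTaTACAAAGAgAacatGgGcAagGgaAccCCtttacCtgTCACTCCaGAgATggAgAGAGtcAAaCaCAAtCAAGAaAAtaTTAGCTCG
Neb exon 149, chr2:52151364-52151456: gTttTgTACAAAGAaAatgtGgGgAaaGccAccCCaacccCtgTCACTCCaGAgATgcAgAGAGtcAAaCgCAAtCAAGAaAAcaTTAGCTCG
Neb exon 150, chr2:52150967-52151059: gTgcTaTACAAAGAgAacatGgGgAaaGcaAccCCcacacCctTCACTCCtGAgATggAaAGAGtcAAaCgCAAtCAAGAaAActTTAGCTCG
Neb exon 151, chr2:52150537-52150629: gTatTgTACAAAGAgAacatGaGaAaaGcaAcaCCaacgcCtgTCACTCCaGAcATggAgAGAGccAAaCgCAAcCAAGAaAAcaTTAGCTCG
Numbers are those of Neb-202, the longest annotated Neb transcript, with 157 exons. Over the 28 pairs of these exons the identity without gaps ran from 74.2% to 87.1%, with a median of 81.7%.

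A second Neb set is shown because reads carried 1 exon or the other. Capitals mark the 40 of 105 positions (38.1%) at which both hold the same base, so this pair is far less alike than the exons above.
Neb exon 123, chr2:52186012-52186116: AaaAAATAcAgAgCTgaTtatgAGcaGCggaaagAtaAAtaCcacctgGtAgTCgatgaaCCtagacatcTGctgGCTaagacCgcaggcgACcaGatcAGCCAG
Neb exon of Neb-210, chr2:52185271-52185375: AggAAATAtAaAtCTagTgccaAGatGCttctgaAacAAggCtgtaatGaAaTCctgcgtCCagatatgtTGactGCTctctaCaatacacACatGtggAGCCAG

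Exon 12 of Nrap is shown whole, in capitals, because it is the Nrap exon whose inclusion lay nearest to an even split.
Nrap exon 12, chr19:56374364-56374468: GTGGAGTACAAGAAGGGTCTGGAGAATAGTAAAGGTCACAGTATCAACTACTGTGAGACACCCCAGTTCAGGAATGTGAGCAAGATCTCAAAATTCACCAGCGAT
For Ttn, 20 bases on each side of 3 junctions are shown, with the bases of the penultimate exon, exon 346 of Ttn-203 (chr2:76705670-76705972), in capitals. The third is the junction of reads that leave this exon out.
Ttn junction of exons 345 and 346: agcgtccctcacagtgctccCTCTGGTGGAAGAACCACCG
Ttn junction of exons 346 and 347: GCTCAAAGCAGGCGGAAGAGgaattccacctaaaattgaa
Ttn junction of exons 345 and 347: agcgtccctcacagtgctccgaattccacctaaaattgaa

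The libraries held 1066347 and 1100253 counts, of which 998659 and 1026257 lay on annotated mouse genes, so 1 count stands for 1.00 and 0.974 CPM, the count scaled to a fixed total of counts on annotated genes. The 9 markers of skeletal muscle fibres summed to 102231 CPM in replicate 1 and 114580 CPM in replicate 2, and all 9 had counts. Of 7 heart muscle markers only Myh6 and Mybpc3 had counts, 15 in replicate 1 and 9 in replicate 2 in sum, while Tnni3, Nppa, Nppb, Myl7 and Ryr2 were at 0 in both. The libraries differed in tissue other than muscle. The 5 epidermis markers (Krt1, Krt5, Krt10, Krt14 and Lor) summed to 4.01 CPM in replicate 1, where only Krt10 was above 0, and to 847 CPM in replicate 2. The 4 Schwann cell markers summed to 1429 and 3436 CPM, the 5 fibroblast markers to 35224 and 23340 CPM, and the 3 adipocyte markers to 125 and 294 CPM. Markers of smooth muscle (529 and 598 CPM), tendon (540 and 611), endothelium (390 and 422), leukocytes (107 and 132) and erythroid cells (211 and 338) were also present. By Fisher's exact test, replicate 2 was higher for 5 of 5 epidermis, 3 of 4 Schwann cell and 3 of 3 adipocyte markers. Of the 9 fibre markers 4 were higher and 4 lower. Of the 5 fibroblast markers 2 were higher (Dcn and Lum) and 2 lower (Col1a1 and Col3a1, which make up most of the sum).

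Nrap was the most abundant of the 7 genes on the CPM scale, where each read counts once. Whether each read stands for a separate molecule was not tested, and Ttn and Neb were read only in parts. Nrap had 371 and 217 counts in replicates 1 and 2, which is 371 and 211 CPM (291 ± 113, SD, n = 2). Ttn followed with 158 and 160 counts, or 158 and 156 CPM (157 ± 1.63). Xirp1 had 130 and 93 counts (110 ± 28.0 CPM), and Obsl1 had 112 and 63 (86.8 ± 35.9 CPM). Neb had 63 and 84 counts, or 63.1 and 81.9 CPM (72.5 ± 13.3). Xirp2 had 25 and 18 counts (21.3 ± 5.30 CPM), and Nebl had 1 count in each library (0.988 ± 0.0190 CPM). The values of Nrap, Ttn and Xirp1 did not overlap between neighbours in this order, nor did those of Neb, Xirp2 and Nebl. Those of Obsl1 overlapped with those of Xirp1 and with those of Neb, while those of Xirp1 and Neb did not overlap. Neb and Obsl1 changed places between the libraries. This order rests on all classes of reads. On the classes Known, NIC and NNC alone (defined with the transcript classes) Ttn had 21.2 CPM. It then lay below Xirp1 (55.0), Obsl1 (36.7) and Neb (26.1).

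**Figure D1:**
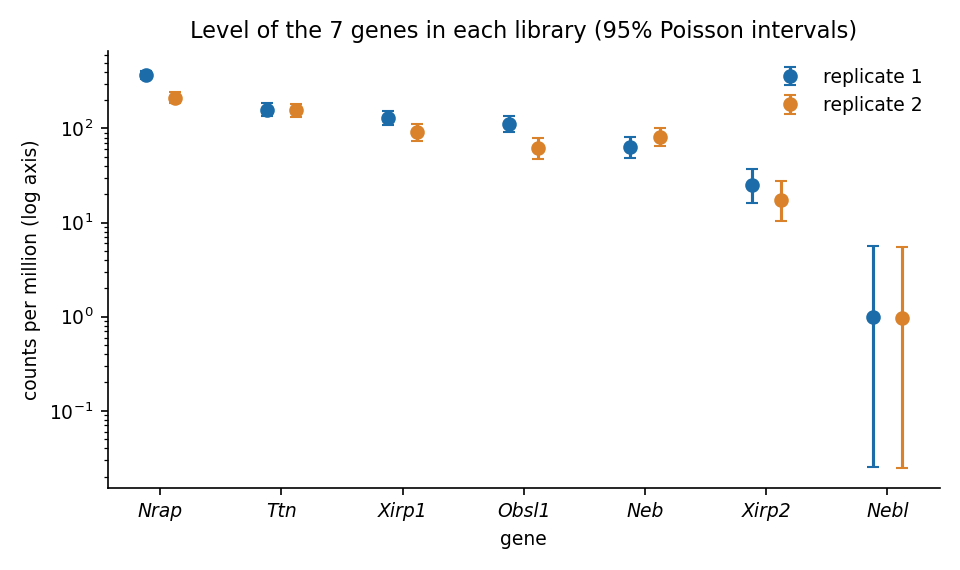
CPM (log axis) of each gene in each library, with exact 95% Poisson intervals that cover counting error only. Ttn sits at nearly the same level in both libraries, Nrap and Obsl1 are lower in replicate 2, and Nebl rests on 1 count per library.

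Divided by the length of the longest annotated transcript, the order changed. Nrap came first with 53.0 ± 20.6 CPM per kb over 5.501 kb, and Xirp1 (18.9 ± 4.79) and Obsl1 (15.3 ± 6.32) came next. Neb had 3.22 ± 0.590 CPM per kb over 22.489 kb. Xirp2 had 1.78 ± 0.442 CPM per kb and Ttn had 1.47 ± 0.0153 over 106.824 kb, and the values of this last pair overlapped. Nebl was lowest with 0.122 CPM per kb. Most reads of the longest genes ended far inside them, so a value per kb of the annotated transcript does not correct a length effect here and is given for scale. Per kb of the longest annotated transcript that had a count, Neb had 72.5 CPM per kb, above Nrap with 53.0, and Ttn had 44.7, since those transcripts are short (Neb-204 has 1000 bases).

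Nrap and Obsl1 were the members whose counts differed between the libraries. Nrap was 1.76-fold lower in replicate 2 (log2 ratio -0.81, 95% interval -1.06 to -0.57, Fisher's exact test, adjusted p = 2.3e-09). Obsl1 was 1.82-fold lower (log2 ratio -0.86, interval -1.34 to -0.41, Fisher's exact test, adjusted p = 0.0025). These are 2 of 6 members tested, beside 9.74% of 11027 genes called in either direction, 4.49% lower in replicate 2 and 5.25% higher. With a minimum of 50 counts, 18.3% of 5949 genes were called, so the share called was higher among genes with more counts. Xirp1 did not pass the threshold (log2 ratio -0.52, interval -0.92 to -0.13, adjusted p = 0.067), nor did Xirp2 (-0.50, -1.47 to 0.42, adjusted p = 0.62) by the same exact test. Neb (0.37, -0.11 to 0.87, adjusted p = 0.42) and Ttn (-0.02, -0.35 to 0.31, adjusted p = 1) did not pass this exact test either, and Nebl had too few counts to be tested. The median log2 ratio was -0.51 over the 6 members and -0.04 over all genes tested. With an edgeR exact test at a preset biological coefficient of variation of 0.1, the call of Obsl1 was lost (adjusted p = 0.15), and at 0.2 that of Nrap was lost too (adjusted p = 1). The epidermis and Schwann cell values and the fibroblast sum given above differ between the libraries, though single fibroblast markers went both ways. Their part in the differences of the members was not tested. In bulk tissue fewer muscle cells and less RNA per cell cannot be told apart.

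Among 61 tested genes of 5 lists that work with the 7, 15 were lower in replicate 2 and 2 were higher by Fisher's exact test, and the others were not called. Over all genes tested 4.49% were lower and 5.25% were higher, and the median log2 ratio was -0.25 over the lists and -0.04 over all. Genes with more counts were called more often, 18.3% of 5949 in either direction with a minimum of 50 counts. The lists were not compared with genes of like counts. In the nebulin, titin and obscurin families 4 of 9 were lower: Myot, a Z-disk protein (795 and 630 counts, log2 ratio -0.37), Mypn (-0.57), Palld (-0.57) and Lasp1 (-0.54). Among 11 genes of thin filament length and nebulin stability 2 were lower, Klhl40, which stabilises nebulin (514 and 329 counts, log2 ratio -0.68), and the pointed-end cap Tmod1 (-0.34). The highest levels of that list were those of Cfl2 (874 ± 39.9 CPM), Capza2 (559 ± 0.399) and Capzb (546 ± 55.8), none of which was called. Of 17 titin partners 5 were lower, with log2 ratios of -0.46 for Tcap, the titin cap (1233 and 919 counts), -0.73 for the M-band protein Myom1, -0.66 for Myom2, -0.63 for Smyd1 and -0.89 for Trim63. The chaperone Cryab (0.55) and Ankrd1 (2.36, 3 and 18 counts) were higher. Of 12 partners of Nrap and the Xirp genes 4 were lower: Des (-0.35), Actn2 (-0.35), Actn3 (-0.45) and Actn1 (-2.36, 22 and 4 counts). None of 12 splicing regulators was called, Rbm20, a regulator of titin splicing, included (84 and 59 counts, log2 ratio -0.55, adjusted p = 0.17 by Fisher's exact test).

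Each count was assigned by the authors to a transcript model and a class: Known, a complete annotated intron chain; ISM, a part of one; NIC, annotated splice sites in a new combination; NNC, with a splice site outside the annotation; and genomic, with no matching splice structure. Known, NIC and NNC together are called full structure here. The name does not stand for whole transcripts, since a NIC or NNC model can be a part of one. No Ttn or Neb count covered 90% of the longest transcript, and a 5-exon NIC chain at the 3′ end held 8 and 9 Ttn counts. Nor did the class NNC hold every count with an unannotated splice site, as given below for Nrap exon 6. For Ttn they made 13.9% of the counts in replicate 1 and 13.1% in replicate 2 (13.5% ± 0.565). The shares were 34.9% and 36.9% for Neb, 42.9% and 41.3% for Obsl1, 48.0% and 45.6% for Nrap, and 65 of 130 counts and 46 of 93 (49.7% ± 0.380) for Xirp1. None of the 25 and 18 Xirp2 counts had full structure, which allows a share of up to 12% and 16.7% (3 counts of the total). For none of the 5 members tested did the share differ between the libraries (Fisher's exact test, adjusted p = 1 for each), beside 0.813% of 6147 genes called.

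Except for Neb, these shares lay in the lower part of the range of genes in the same length class. Over all 6147 genes the median was 91.5% in replicate 1 and 90.9% in replicate 2. Over the 68 genes with a longest transcript of at least 10 kb it was 58.2% and 54.5%. Of these 68 genes, 9 had a lower share than Ttn and 27 a lower share than Neb. The class begins at 10 kb and Ttn-203 has 106.824 kb, so the rank of Ttn is not one among genes of its own length. Over 1419 genes of 4 to 6 kb the median was 85.5% and 83.7%, and only 95 of them lay below Nrap, 80 below Obsl1 and 113 below Xirp1. These ranks are a description, with no test of the members against other genes. They rank shares of classes, not shares of whole transcripts.

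**Figure D2:**
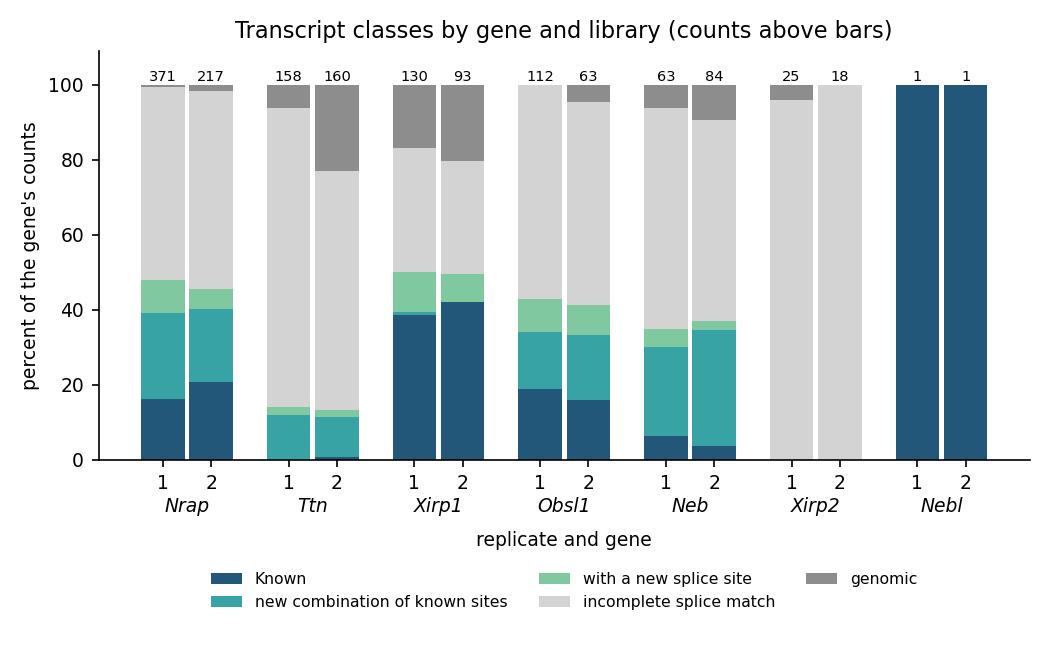
Percent of each gene's counts by transcript class, 1 bar per library, with the number of counts above it. Incomplete splice matches are the widest class for Ttn, Neb, Obsl1, Nrap and Xirp2, and the genomic class of Ttn is wider in replicate 2, with 37 counts against 10. Part of this gap is one of naming. Unspliced models in the last exon of Ttn-202 (9 and 14 counts) are named ISM in replicate 1 and genomic in replicate 2.

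No read came near to the whole of titin (ENSMUSG00000051747.14). The median count covered 4.54% of the exonic bases of Ttn-203 (347 exons, chr2:76703980-76982455) in replicate 1 and 2.36% in replicate 2, and the highest share was 11.9%, from a 17-exon molecule of 12872 bases over the 3′ end. The model with the most exons had 45 exons and 6225 bases and lay inside the gene, from exon 93 to exon 139. Of the 347 exons, 189 had a count in at least 1 library and 158 had none in either. The read depth was highest over exon 347, with 102 and 118 counts, and fell to 5 and 7 over exon 340. Exons 151 to 200 had no count in either library, and exons 51 to 100 reached at most 3 counts. The first exon had 19 and 15 counts, so a smaller peak stood at the 5′ end.

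Models of Ttn had 3 main kinds of ends. The first kind reached the common 3′ end of the full-length transcripts, with 102 of 158 counts (64.6%, interval 56.6 to 72.0%) and 118 of 160 (73.8%, 66.2 to 80.4%). Its commonest chain had 6 exons and 63 and 58 counts, followed by a 4-exon chain with 12 and 15 and a 5-exon NIC chain with 8 and 9. The second kind ended with the 3′ end of Ttn-202 at chr2:76913944, a short titin with its own last exon of 6520 bases, with 12 and 18 counts. Counted against the sum of this end and the full-length end, that is 10.5% (5.56 to 17.7%) and 13.2% (8.04 to 20.1%), and the intervals overlap. Most of them, 9 and 14, were unspliced models within that last exon, which the authors' classes name ISM in replicate 1 and genomic in replicate 2. The third kind began at an annotated 5′ start, with 19 and 15 counts. Of these, 14 and 9 stopped at no annotated 3′ end, and 5 and 6 stopped at the end of a short annotated transcript. These ends are those of models, and whether ends inside the gene are ends of molecules or of reads was not tested.

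The intron between exons 341 and 342 of Ttn-203, of 156 bases (chr2:76708620-76708775), was spliced out in no count of either library. Another pair of annotated introns of the same length, shifted by a few bases, was spliced out in none either. Models with 76 counts in each library span it, but only 4 and 7 of these counts crossed it within an exon bounded by splice junctions on both sides. With so few, a spliced share of up to 75.0% and 42.9% (3 counts of the total) is allowed. The other counts had it in an outer exon, whose extent is that of the model and can exceed that of a single read. As modelled, the commonest Ttn chain holds exons 341 and 342 of Ttn-203 as a single exon.

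Neb (ENSMUSG00000026950.17, chr2:52136647-52378474) showed the same shape as Ttn at a smaller scale. The median count covered 7.60% of Neb-202 in replicate 1 and 7.19% in replicate 2. The highest share was 32.6%, from a 53-exon molecule of 7405 bases at the 5′ side. The model with the most exons, 58 exons and 7064 bases, ran from exon 97 to the last exon. Depth over the last exon was 37 and 57 counts, and the median over exons 51 to 75 and over exons 76 to 100 was 0 in both libraries. Of the 157 exons, 24 had no count in either. Models at the 5′ end began at the first base of Neb-204 (chr2:52335762), with 20 and 16 counts. None touched exon 1 of Neb-202, which lies upstream and starts at chr2:52338798. All 20 and 16 used the annotated first intron of Neb-204. No Neb chain was common: the most frequent were a 3-exon 3′ part with 4 and 8 counts, an 8-exon 3′ part with 1 and 9, and Neb-204 with 4 and 3.

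**Figure D3:**
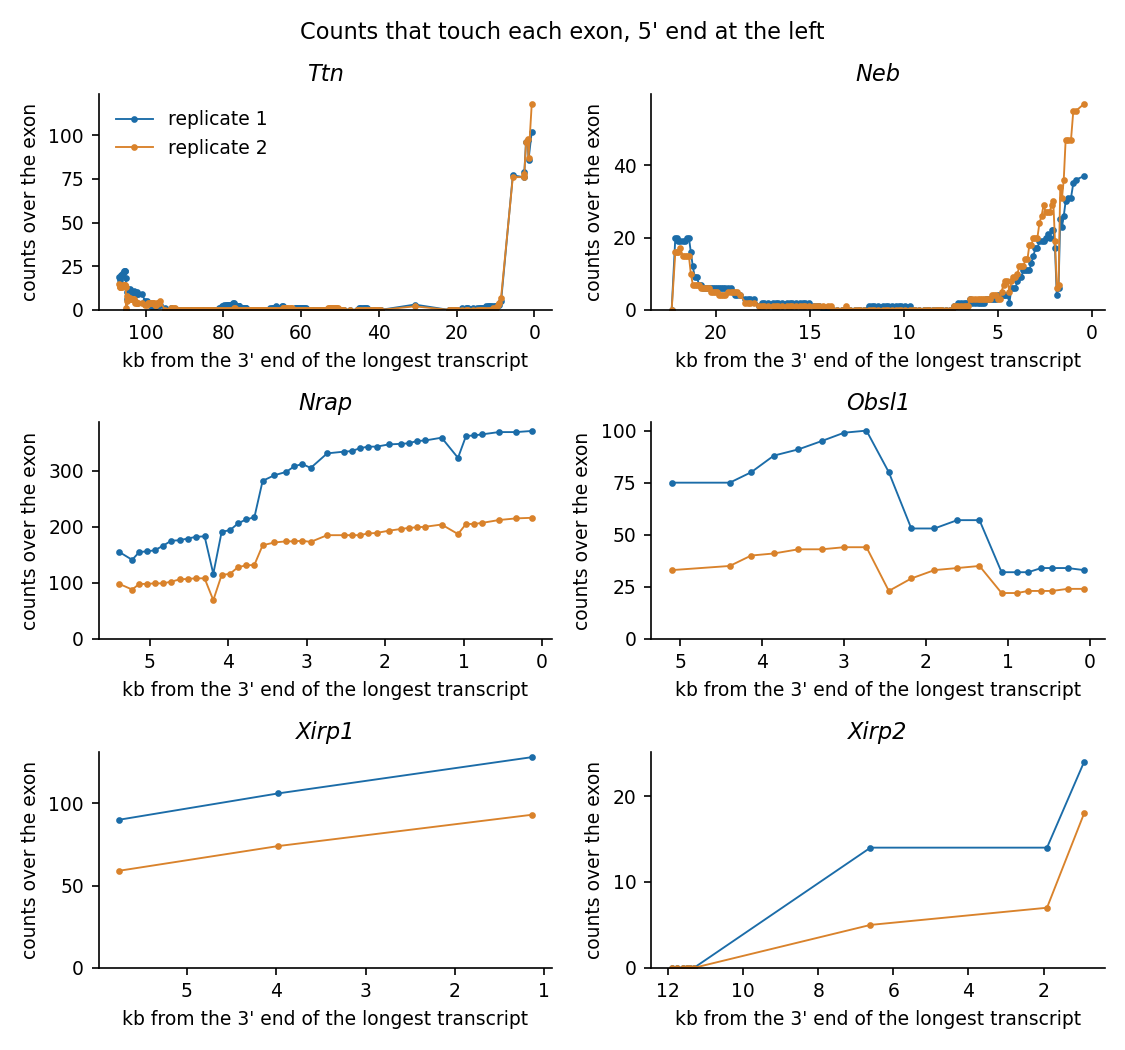
Counts of models that touch each exon of the longest annotated transcript, against the distance from its 3′ end in kb, for 6 genes and both libraries. Ttn and Neb have a high peak at the 3′ end, a low one at the 5′ end and near 0 between them, while Nrap, Obsl1 and Xirp1 have counts over every exon and Xirp2 over the last 3 only.

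Nrap, Obsl1 and Xirp1 were read from end to end by part of their molecules. For Nrap (ENSMUSG00000049134.15) 156 of 371 and 97 of 217 counts covered at least 90% of Nrap-202 (42 exons, chr19:56320041-56390037), and the median count covered 75.2% and 77.1%. As modelled, all 371 counts of replicate 1 and 216 of 217 in replicate 2 ended at the annotated 3′ end. The modelled 5′ ends gathered at the annotated starts, with 153 and 97 counts, and at exon 18, with 60 and 32. The latter end (chr19:56364027) is the exact edge of that exon, so it is not the observed end of each read. The commonest chain was that 25-exon 3′ part, with 45 and 26 counts, then Nrap-202 itself with 38 and 29. The third had 42 exons and was NIC, with 38 and 14 counts.

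Obsl1 (ENSMUSG00000026211.17, chr1:75479310-75506452) had more than 1 common 3′ end. The end of Obsl1-202 (20 exons) had 33 and 24 counts, that of Obsl1-211 (chr1:75490534) had 28 and 15, and that of the short Obsl1-201 and Obsl1-203 (chr1:75496336) had 16 and 22. A single 8-exon chain with 34 and 12 counts was given an end at chr1:75494057 in replicate 1 and at chr1:75496336 in replicate 2. Reads with the same chain share 1 model, so the ends of such a model are not those of each read, and the ends of Obsl1 cannot be compared between the libraries. The chain itself, exons 1 to 8, is a 5′ part of the gene, and the next most frequent were Obsl1-201 with 10 and 6 counts and Obsl1-211 with 10 and 2. Counts that covered at least 90% of Obsl1-202 were 9 of 112 and 5 of 63, and every exon had a count in each library. In replicate 1 a 21-exon NIC model with 4 counts covered all of its exonic bases. The model with the most exons, 22, was NIC and had 1 count in replicate 1.

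Xirp1 (ENSMUSG00000079243.3, 3 exons, chr9:120013755-120023598) was most often complete, with 50 and 39 counts on the annotated chain of Xirp1-201, followed by a 2-exon 3′ part with 18 and 15. Models covering at least 90% of Xirp1-201 took 87 of 130 and 58 of 93 counts. The model with the most exons, 4, was NNC and had 1 count in replicate 1. A 2-exon chain that keeps the second intron (391 bases) had 21 and 9 counts. Including a second such chain, 25 and 13 counts kept this intron and 80 and 60 spliced it out, which is 23.8% (16.0 to 33.1%) and 17.8% (9.84 to 28.5%) kept, provided that all reads of these models cross it. Xirp2 (ENSMUSG00000027022.13, 9 exons, chr2:67446002-67526614) was seen only over its last 3 exons. A 3-exon 3′ chain had 13 and 5 counts, a 2-exon 3′ chain had 1 and 2, and unspliced models over the last exon had 10 and 11. None of the 25 and 18 counts touched exons 1 to 6. The median count was on a model that covered 93.8% of Xirp2-202 in replicate 1 and 15.4% in replicate 2. In replicate 2 unspliced models held 11 of 18 counts. These extents are not those of each read: the 3-exon chain was modelled over 11234 bases in replicate 1 and 8635 in replicate 2.

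Nebl (ENSMUSG00000053702.16, chr2:17343909-17731464), whose long heart form is Nebl-202 with 28 exons, had 1 count on Nebl-205 (2 exons) in replicate 1 and 1 on Nebl-201 (7 exons) in replicate 2, both with the complete annotated chain. The count of replicate 2 touched 3 exons of Nebl-202, and that of replicate 1 touched none. With 1 count per library nothing further can be said of this gene.

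The 2 libraries had 80 intron chains of these genes in common. For Nrap 37 of 100 chains in replicate 1 and of 68 in replicate 2 were shared, and they held 76.4% and 83.6% of the spliced counts. For Ttn 13 of 45 and of 31 chains were shared, with 75.2% and 83.5% of the counts. For Neb 11 of 46 and of 52 were shared, and they held only 37.3% and 40.8%, since 42 of 49 Neb models in replicate 1 and 46 of 57 in replicate 2 had a single count. Xirp1 chains were nearly all shared by count, 97.2% and 98.6%, and those of Obsl1 by 65.2% and 55.0%.

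Alternative exons were counted as included or skipped on molecules that spanned them. Of 41 member exons with at least 20 informative counts in each library, 15 (36.6%) were intermediate, with 5 to 95% inclusion in both, beside 11.8% of all 16815 exons tested. Neb had 9 of them, Nrap 3, Obsl1 2 and Ttn 1. The length of 14 of the 15 was a multiple of 3 bases, as was that of 56.2% of all 1992 intermediate exons. Most of the other member exons tested also had such a length, so this trait is not particular to the intermediate ones. None of the 41 differed between the libraries (Fisher's exact test, adjusted p = 1 for each, smallest unadjusted p = 0.12), beside 0.0416% of all exons called. The widest difference was 20.0 points.

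Exon 346 of Ttn, shown above by its junctions, is the M-band exon known as Mex5, which codes for a part of titin near the binding site of the protease calpain 3. It was included in 82 of 95 counts in replicate 1 (86.3%, Clopper-Pearson interval 77.7 to 92.5%) and in 84 of 97 in replicate 2 (86.6%, 78.2 to 92.7%). The junction of exons 345 and 347, used by 12 and 13 counts, is outside the annotation. The level was thus nearly the same in the 2 libraries. At the other end of Ttn, exons 12 and 13 (138 bases each), which code for Z-repeats that bind alpha-actinin, were spanned by few reads. Of 10 counts that crossed both in replicate 1, 5 carried both exons and 5 carried neither. Of 6 in replicate 2, 1 carried both, 1 carried exon 12 alone and 4 carried neither. These counts are under the minimum of 20 and were not tested.

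Exon 12 of Nrap, 105 bases long and left out of the annotated Nrap-201, was included in 115 of 182 counts (63.2%, 55.7 to 70.2%) and in 66 of 108 (61.1%, 51.2 to 70.3%). It is known as the exon of the heart form of Nrap, and skeletal muscle is known to make the form without it. In this skeletal muscle of 4 days of age both forms were present, and more counts carried the exon than skipped it in each library. Exon 36, also of 105 bases, was included in 89.1% (320 of 359) and 91.1% (185 of 203), and its skipping junction is outside the annotation. Exon 2, of 95 bases, was included in 91.0% (141 of 155) and 89.8% (88 of 98). These 3 exons kept close to the same inclusion in both libraries.

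Nrap exon 6 also had a pair of acceptors 3 bases apart, a measure added after its values were seen. The unannotated acceptor, 3 bases upstream, was used by 79 of 158 counts in replicate 1 (interval 42.0 to 58.0%) and by 32 of 99 in replicate 2 (32.3%, 23.3 to 42.5%). The difference was not called over 4585 such pairs (Fisher's exact test, unadjusted p = 0.0065, adjusted p = 1), where 0.0218% were called. Xirp1 had a like pair at its second exon, where the unannotated acceptor lies 3 bases downstream, with 16 of 88 counts (18.2%) and 10 of 59 (16.9%). The authors' classes name 33 and 12 Nrap counts and 14 and 7 Xirp1 counts NNC, fewer than used these unannotated acceptors. Other classes thus hold some of these counts, and the reason was not tested.

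In Obsl1 an exon of 276 bases of the annotated Obsl1-205 (chr1:75492067-75492342) was included in 18 of 47 counts (38.3%, 24.5 to 53.6%) and in 10 of 28 (35.7%, 18.6 to 55.9%). It is absent from the longest transcript. Exon 9 (273 bases, chr1:75493785-75494057) was included in 44 of 50 (88.0%) and 18 of 22 (81.8%). Both are coding exons of a length divisible by 3.

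**Figure D4:**
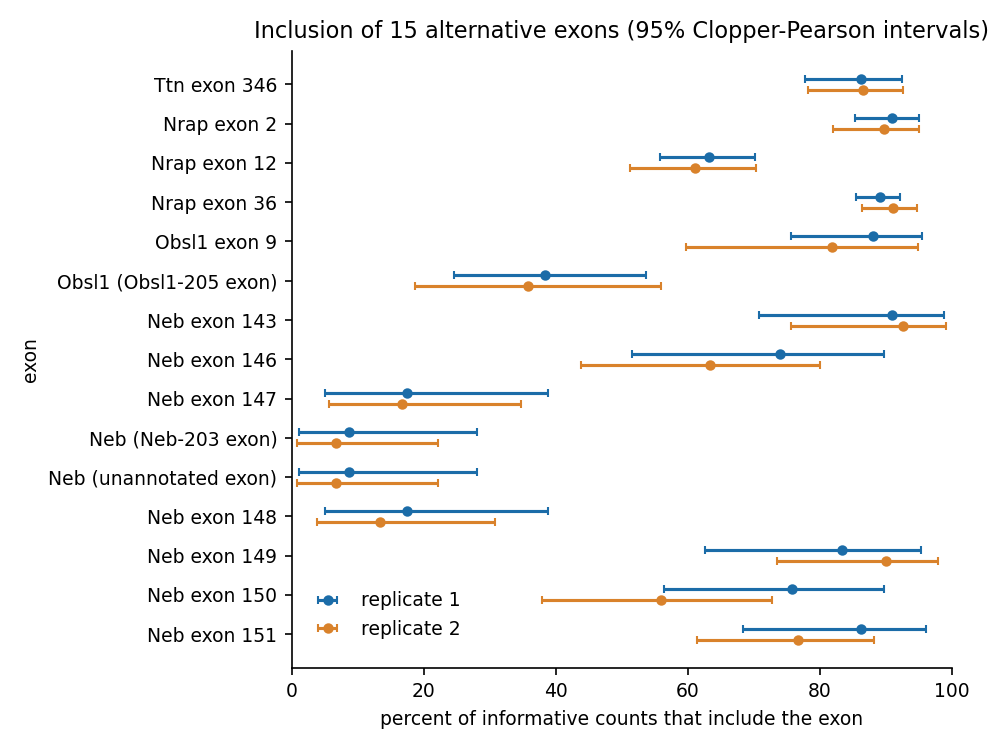
Percent of informative counts that include each of the 15 intermediate exons, for both libraries, with 95% Clopper-Pearson intervals. The intervals of the 2 libraries overlap for every exon, and the Neb exons range from 6.67% to 92.6%.

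The Neb exons printed above formed the most varied stretch. Exon 146 was included in 17 of 23 counts in replicate 1 (73.9%, 51.6 to 89.8%) and in 19 of 30 in replicate 2 (63.3%, 43.9 to 80.1%). Exon 149 (20 of 24 and 27 of 30 counts), exon 150 (75.9% and 55.9%) and exon 151 (86.2% and 76.7%) were mostly in. Exons 147 (17.4% and 16.7%) and 148 (17.4% and 13.3%) were mostly out, as were the exon of Neb-203 and an unannotated 93-base exon (chr2:52154570-52154662), each with 8.70% and 6.67%. The exon of Neb-208 was included in 1 of 23 and 3 of 30 counts. Exons 144 and 145, just upstream, and 152 to 155, downstream, were included in over 95% in both libraries, and exon 143 (105 bases) in 90.9% and 92.6%.

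Read by read, 22 counts in replicate 1 and 29 in replicate 2 were spliced out of exon 145 and into exon 152. They held 16 different combinations of the exons between, 9 of them seen in both libraries and 2 of them annotated. The commonest, exons 146, 149, 150 and 151, had 9 and 7 counts (40.9% and 24.1%) and is not an annotated combination. The number of exons between ran from 0 to 9, with a median of 3. Exons 147 and 148 went together: 4 and 3 counts carried both, 0 and 1 carried exon 147 alone, none carried exon 148 alone and 18 and 25 carried neither. All 9 exons were carried by 1 count in each library.

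**Figure D5:**
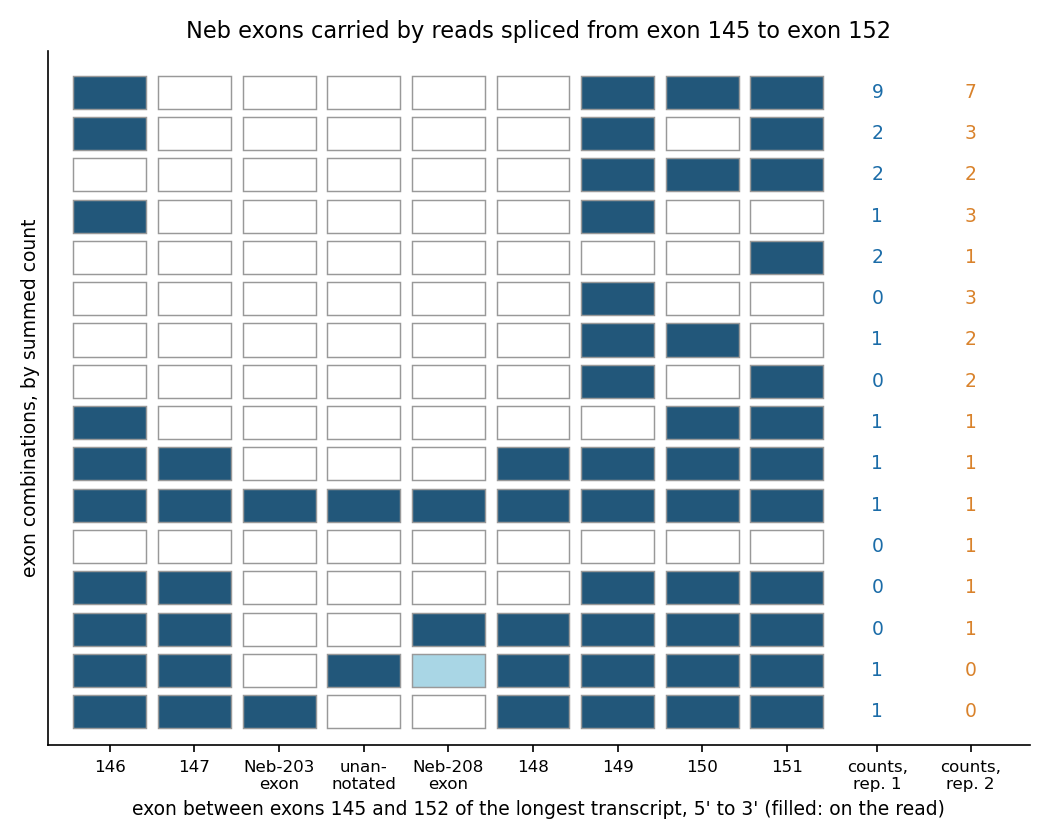
The 16 exon combinations of Neb reads spliced from exon 145 to exon 152, 1 row each, with filled boxes for exons on the read and the counts per library at the right. The pale box is an unannotated exon of 68 bases beside the Neb-208 exon. The top row, exons 146, 149, 150 and 151, has 9 and 7 counts, and exons 147 and 148 are filled together in all rows with exon 148.

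The pair of exons near exon 123 was spanned by 5 and 8 counts. Exon 123 was carried by 2 and 5, the exon of Neb-210 by 2 and 3, both by none and neither by 1 and 0. At this depth, inclusion of 1 or the other cannot be ordered.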

How the data were processed

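Replicates are 2 libraries of 1 group. Members and lists were chosen with earlier results of these data known. Deposited transcript tables give raw counts of reads per transcript model, per the file headers, on mm10 with GENCODE M21, per the readme beside the files. No source used here names the aligner or the versions of the tools. Counts were summed per annotated gene and scaled to CPM over the counts on annotated genes. Two-sided Fisher's exact tests (scipy) compared genes with at least 10 counts in sum. They also compared shares of Known, NIC and NNC counts, and exons, with at least 20 counts in each library. Adjustment was by Benjamini-Hochberg over all features, with calls at 0.05. Log2 ratios use a prior count of 0.5. The tests were tested on simulated data. Exons had to match exactly, and ends within 100 bases of an annotated end counted as annotated. Intervals are 95% and cover counting error only. Splice junctions are exact, while outer ends are those of a model and not of each read. Many unannotated 5′ ends lay exactly on the edge of an annotated exon, as that of Nrap at exon 18. Shares covered and counts of ends therefore describe models. The text names all 7 members, and for each its 3 commonest chains, the model with most exons, the model covering the largest exonic share, and its intermediate exons. For Neb, with 9 of those, the rule keeps the 8 nearest to 50%, and the pair tied for the last place is given whole. The Neb-208 exon, the exon pairs of few counts, introns and acceptors were named after their values were seen. edgeR 4.0.16 and DESeq2 1.42.0 were used for alternatives.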

Additional observations from a re-analysis of the deposited data

Results flagged for a closer look

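Counts on the strand opposite to a member and outside the annotation stood above the 3 counts that a count of 0 allows, in data that the comparisons above do not use. Ttn had 61 such counts (38.6% of its sense counts) in replicate 1 and 78 (48.8%) in replicate 2. The most frequent model had 12 counts in replicate 1 (chr2:76961436-76963703) and 35 in replicate 2 (chr2:76959991-76963703). Neb had 71 (113% of its sense counts) and 82 (97.6%), with 27 counts in each library on models ending at chr2:52332166. Obsl1 had 9 in replicate 2 (1 in replicate 1), and Nrap had 9 and 12. Of these counts 6 and 4 were spliced for Ttn, and 12 and 9 for Neb.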

How the results depend on the processing

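No paired analysis was possible because the series has 1 group. The count of genes called, 1074, fell to 172 and 56 with an edgeR exact test at a preset coefficient of variation of 0.1 and 0.2, and the cause lies in the preset spread. Among single genes, Obsl1 also lost its call on Known, NIC and NNC counts alone (adjusted p = 0.065 by Fisher's exact test), and Xirp1 gained one with a minimum of 50 counts, where fewer genes are tested (adjusted p = 0.043 by Fisher's exact test). On Known, NIC and NNC counts, levels were 21.2 (Ttn), 26.1 (Neb), 36.7 (Obsl1), 137 (Nrap), 55.0 (Xirp1) and 0 (Xirp2) CPM. Per kb of the longest annotated transcript with a count they were 72.5 (Neb), 44.7 (Ttn), 0.171 (Nebl), 15.3 (Obsl1), 53.0 (Nrap) and 18.9 (Xirp1) CPM, and the Neb and Ttn values are high because those transcripts are short. The order of the genes thus changed under both settings. Ttn was below Xirp1, Obsl1 and Neb on Known, NIC and NNC counts, and Neb was above Nrap per kb. That setting gave no value for Xirp2, which has no count on an annotated chain. The median share covered became 6.25% (Neb) and 43.5% (Obsl1) over the union of annotated exons, and 14.6% (Neb), 60.1% (Obsl1) and 98.2% (Nrap) on Known, NIC and NNC counts. The 15 intermediate member exons became 4 with a minimum of 50 counts and 3 on Known, NIC and NNC counts, where fewer exons are tested, and exons called over all genes went from 7 to 13. Shared intron chains fell from 80 to 46 among models with at least 2 counts. Counting error limits all values of Nebl and Xirp2. Over the alternatives run, the log2 ratio of Ttn, which was not called, ran from -0.11 to 0.02 and so took either sign, and those of the other 5 members tested kept theirs.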
